A study of Glycine max with 12 samples.

Results

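Soybean root tips treated with propiconazole (PPZ) followed by brassinolide (BL) were compared with root tips treated with PPZ alone. The comparison used the 6 libraries whose labels give these treatments, 3 of PPZ plus BL and 3 of PPZ, out of 12 libraries in the series, and neither mock libraries nor libraries given BL alone entered it. Seedlings of Glycine max, labelled as cultivar Wm82, were germinated for 3 days and kept in hydroponic culture for 5 days before PPZ was given at 0.1 μM. The PPZ group then had PPZ for 2.5 days. The PPZ plus BL group had PPZ for 2 days and BL at 0.01 nM for the last 0.5 days, so that seedlings of both groups had the same age when the apical 1 cm of the root was taken. The wording of the sample label puts the order the other way round, and no source says whether PPZ was still present during the BL period. Added BL and a PPZ exposure that ended earlier therefore cannot be told apart here. The series text speaks of eBL as well as BL, and the methods of the study name another cultivar. No label says that the replicates of the combined group came from separate cultures, and p-values then measure only the spread between these samples, which may be technical.

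Brassinosteroids are steroid hormones that are bound at the cell surface by the receptor kinase BRI1 and its partner SERK kinases. In the absence of the hormone, a kinase of the GSK3 type holds the BES1/BZR1 transcription factors inactive, and binding of the hormone releases them to regulate genes of cell elongation, cell walls and hormone synthesis. PPZ blocks brassinosteroid synthesis by inhibiting a cytochrome P450 enzyme of the pathway, which makes hormone given together with or after PPZ a common test of what depends on brassinosteroid itself.

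The 6 libraries held between 19073510 and 23295279 counts. Of 52872 annotated genes, 35792 passed the filter on low counts and were tested. A gene was called when the Benjamini-Hochberg adjusted p of edgeR's quasi-likelihood test was 0.01 or less and the fold change was at least 3. Levels are counts scaled to a common library size (CPM) after TMM normalization, log2 fold changes are PPZ plus BL minus PPZ, and errors of log2 fold changes are standard errors (SE). CPM values are not corrected for gene length and were compared between libraries only. The first principal component took 80.1% of the variance and put the PPZ libraries between -86.9 and -63.6 and the PPZ plus BL libraries between 67.7 and 76.4.

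Lower calls outnumbered higher calls in PPZ plus BL. Of the tested genes, 2766 were called (7.73%), 770 of them higher (2.15%) and 1996 lower (5.58%) in PPZ plus BL. Over all tested genes, called or not, 18285 log2 fold changes lay above 0 and 17507 below. Every called gene had groups that did not overlap, which 49.1% of all tested genes also had. By the adjusted p of 0.01 alone, with no demand on the fold, 2861 genes were past it upward (7.99%) and 4108 downward (11.5%). Scaling by library size alone moved the all-gene median of the log2 fold changes from 0.01 to 0.19 and gave 1129 higher and 1754 lower genes, so that lower calls outnumbered higher calls under both scalings. Leaving out 1 library at a time gave between 459 and 785 higher and between 1558 and 2119 lower genes. The count of higher genes fell to 489 without PPZ 1, to 459 without PPZ 2 and to 492 without PPZ plus BL 2.

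**Figure D1:**
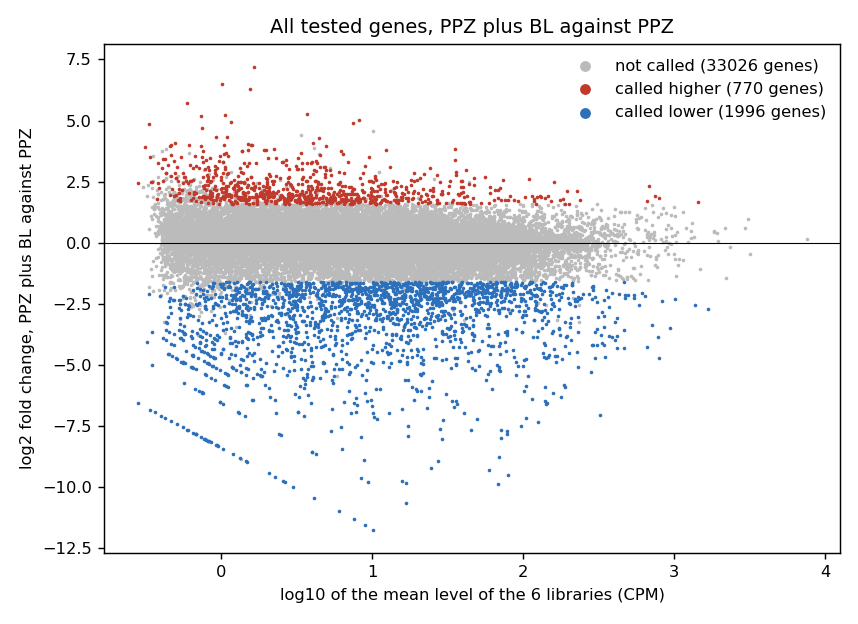
Log2 fold change of each tested gene, PPZ plus BL against PPZ (vertical axis), plotted against the log10 of its mean CPM over the 6 libraries (horizontal axis). The 1996 genes called lower extend farther from 0 than the 770 called higher, and the fitted values of genes without counts in a group, on the diagonal lines, depend on the prior count and are no measure of size.

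Gene lists, defined by Pfam entries, differed in how many of their members were called and in which direction. The counts below are to be read beside the 5.58% lower and 2.15% higher of all tested genes. Summed levels of a list, given below, include its members that failed the filter on low counts. Plant cysteine oxidases, Kunitz and Bowman-Birk protease inhibitors, chalcone synthases and TIFY genes held lower calls and no higher calls. Fasciclin, polygalacturonase, tubulin and chlorophyll a-b binding genes had higher calls only. Lists of DNA replication, histones, cyclins and ribosomal proteins held almost no calls in either direction.

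**Figure D2:**
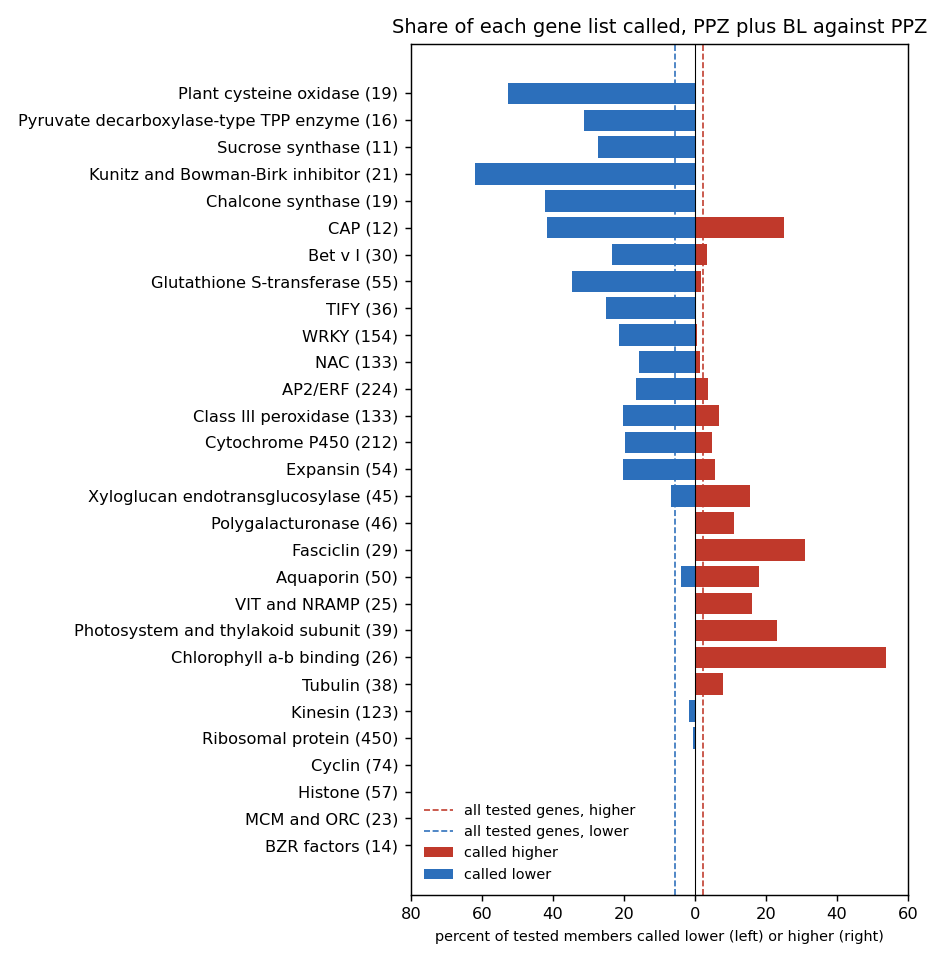
Share of the tested members of each gene list that was called higher (bars to the right) or lower (bars to the left) in PPZ plus BL than in PPZ, in percent, with the number of tested members in brackets. The dashed lines mark all tested genes, 2.15% higher and 5.58% lower, and the bars of the upper lists run to the left while those of fasciclin, aquaporin and chlorophyll a-b binding genes run to the right.

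Some genes that plants are known to express when oxygen is short were lower in PPZ plus BL. The lists of low-oxygen and fermentation genes were chosen after values were seen, so their counts describe that choice. Plant cysteine oxidases are the oxygen sensors that mark group VII ERF factors for degradation in Arabidopsis, and some of their own genes are induced by low oxygen there. Of 19 tested genes with this domain, 10 were called lower (52.6%, against 5.58% of all tested genes) and 0 higher. Their median log2 fold change was -2.76 against 0.01 over all genes. The 6 fits that each left out 1 library gave between 6 and 12 lower calls, the fewest without PPZ plus BL 2. Glyma.14G176800 (chromosome 14, 44489796 to 44492104) had 28.6, 19.6 and 12.8 CPM in PPZ 1, PPZ 2 and PPZ 3 and no counts in any PPZ plus BL library. The level was at least 145-fold lower, taking 3 counts per library as the floor (adjusted p = 2.08e-04, edgeR). A second gene of the list, Glyma.02G208600, had 29.0, 14.5 and 10.2 CPM in the PPZ libraries, again no counts in PPZ plus BL, and was at least 128-fold lower (adjusted p = 5.51e-04). Both genes were highest in PPZ 1 and lowest in PPZ 3, and the groups did not overlap, as in every called gene.

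Some genes for enzymes of ethanol fermentation fell as well. Pyruvate decarboxylase, an enzyme with thiamine pyrophosphate (TPP) domains that some other enzymes share, turns pyruvate into acetaldehyde, and alcohol dehydrogenase reduces this to ethanol. Among 16 TPP-domain genes, 5 were called lower (31.25%, against 5.58% of all tested genes) and 0 higher, while 6 had log2 fold changes above 0 and 2 passed the adjusted p upward. Glyma.03G055100 (chromosome 3, 7593260 to 7597987) had 235, 211 and 174 CPM in the PPZ libraries and 1.39, 1.44 and 1.502 CPM in PPZ plus BL 1, 2 and 3 (log2 fold change -7.15 ± 0.18, adjusted p = 6.19e-06). The smallest adjusted p of all tested genes was shared by this gene and Glyma.18G272400, a gene without a Pfam entry (log2 fold change -7.20 ± 0.20). Glyma.13G231700, another TPP-domain gene, had 2153, 1764 and 1286 CPM in PPZ and 89.7, 158 and 219.8 CPM in PPZ plus BL (log2 fold change -3.47 ± 0.36, adjusted p = 3.16e-04). The alcohol dehydrogenase gene ADH2 (Glyma.04G240800) had 2768, 2491 and 1768 CPM in PPZ and 411, 366 and 419.9 CPM in PPZ plus BL (log2 fold change -2.55 ± 0.21, adjusted p = 1.17e-04). In each of these genes the lowest PPZ library stood above the highest PPZ plus BL library by more than the spread within either group.

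Sucrose synthase feeds glycolysis with sugar from sucrose, and pyruvate kinase makes the pyruvate. Of 11 sucrose synthase genes, 3 were called lower and 0 higher, while the median was -0.00, and 0.18 under scaling by library size, so that the calls came from a few members. Glyma.15G182600 had 1032, 927 and 689.7 CPM in PPZ and 37.9, 39.6 and 58.2 CPM in PPZ plus BL (log2 fold change -4.29 ± 0.25). Glyma.09G073600 had 3262, 2884 and 2613 CPM in PPZ and 537, 402 and 417 CPM in PPZ plus BL (log2 fold change -2.69 ± 0.19). By contrast Glyma.17G045800 had 842, 859 and 785 CPM in PPZ and 986, 813 and 771 CPM in PPZ plus BL, with overlapping groups. Among 21 pyruvate kinase genes, 5 were called lower and 0 higher. Glyma.10G201100 had 1014, 803 and 563 CPM in PPZ and 34.4, 37.6 and 50.2 CPM in PPZ plus BL (log2 fold change -4.28 ± 0.27, adjusted p = 4.93e-05). Among these enzymes, members that fell at least 3-fold stood beside members whose levels overlapped.

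Small proteins of the low-oxygen response showed the same direction. Both genes with the hypoxia-induced protein domain were called lower. Glyma.18G022000 had 104, 113 and 76.9 CPM in PPZ and 0.464, 0.480 and 1.02 CPM in PPZ plus BL (log2 fold change -7.23 ± 0.29, adjusted p = 1.94e-05), and Glyma.11G235000 had 426, 397 and 226 CPM in PPZ and 0.515, 4.16 and 8.38 CPM in PPZ plus BL (log2 fold change -6.32 ± 0.76, adjusted p = 6.23e-04). PPZ 3 was the lowest PPZ library in both genes, and PPZ plus BL 3 was the highest of its group. As in every called gene, the groups did not overlap. Of 7 early nodulin 93 genes, 6 were called lower, with a median of -5.23. Glyma.17G117200 had 373, 375 and 215 CPM in PPZ and 7.06, 11.9 and 19.6 CPM in PPZ plus BL (log2 fold change -4.64 ± 0.41), while the uncalled member Glyma.17G192100 had 31.2, 34.9 and 42.4 CPM and 29.6, 32.6 and 35.7 CPM. Globins bind oxygen and nitric oxide, and the plant globin gene Glyma.11G121700 fell from 46.8, 55.4 and 39.4 CPM to 10.7, 13.5 and 14.1 CPM (log2 fold change -1.89 ± 0.16, adjusted p = 1.49e-04). Its neighbour Glyma.11G121800 had 2111, 1988 and 1912 CPM in PPZ and 1165, 889.5 and 806 CPM in PPZ plus BL, and passed the adjusted p but not the fold of 3 (log2 fold change -1.07 ± 0.18, adjusted p = 0.00306).

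Within the PPZ group, these genes were not level. Summed over the 19 plant cysteine oxidase genes, PPZ libraries ranged from 1027 to 2426 CPM and PPZ plus BL libraries from 81.5 to 295 CPM. Over the pair of hypoxia-induced protein genes the sums ranged from 303 to 529 CPM in PPZ and from 0.979 to 9.40 CPM in PPZ plus BL. PPZ 1 was highest and PPZ 3 lowest of its group in most of the genes named above, and PPZ plus BL 1 was lowest of its group in many of them. Even so, the sums of the PPZ plus BL group stayed below every PPZ library.

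**Figure D3:**
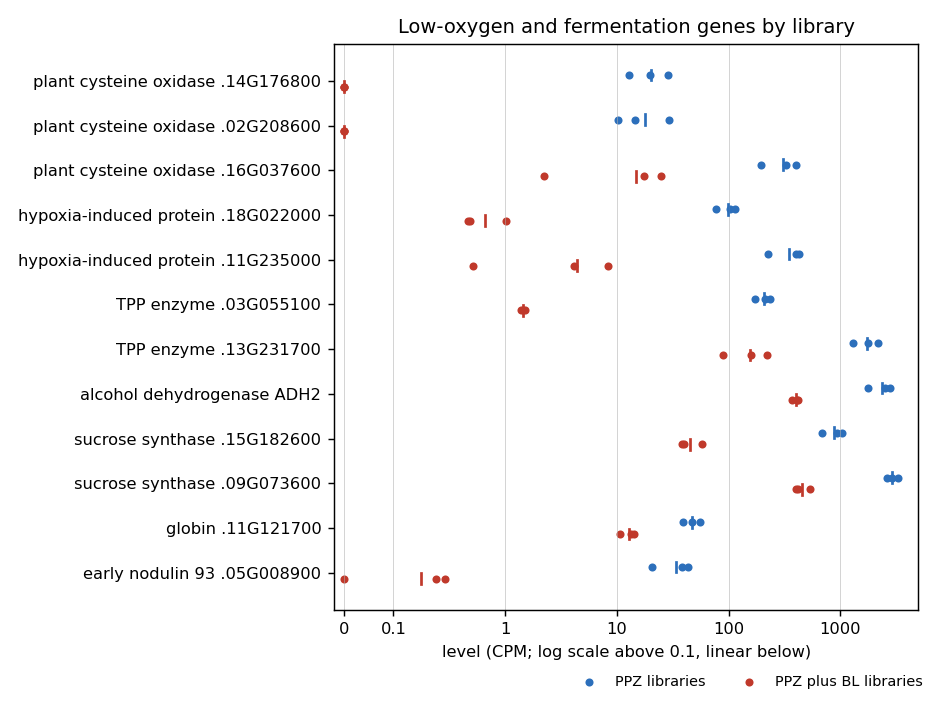
Levels in CPM (horizontal axis, logarithmic above 0.1 and linear below) of 12 low-oxygen and fermentation genes in each PPZ library (blue points) and each PPZ plus BL library (red points), with vertical bars at the group means. Gene identifiers are given without their Glyma prefix, and in every row the red points lie to the left of the blue points.

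Further families, of stress and sugar-signal genes, held lower calls and no higher calls. Aluminium-induced proteins, a family of glutamine amidotransferase-like stress proteins, held 8 lower and 0 higher calls among 14 genes, with a median of -2.70, and the same count of 8 came from each of the 6 fits with a library left out. Glyma.13G181000 had 362, 298 and 274 CPM in PPZ and 10.9, 12.5 and 14.5 CPM in PPZ plus BL (log2 fold change -4.62 ± 0.18, adjusted p = 1.62e-05). Trehalose phosphatases, which turn the sugar signal trehalose phosphate into trehalose, held 10 lower and 0 higher calls among 31 genes. In Glyma.14G171700 the levels were 233, 171 and 141 CPM in PPZ and 13.2, 14.7 and 16.0 CPM in PPZ plus BL (log2 fold change -3.63 ± 0.21). Phloem protein 2 lectins held 9 lower and 0 higher calls among 26 genes, with a median of -1.22. These lists, like those of low-oxygen genes, polyphenol oxidases, matrixins, cysteine-rich kinases, prenyltransferases and photosystem subunits, were chosen after values were seen, and their counts describe what drew attention to them.

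Several families of defence genes also held lower calls, while others were mixed. Chitinases held 3 lower (10%) and 1 higher (3.33%) call among 30 genes, against 5.58% and 2.15% of all tested genes. Thaumatin-like genes held 4 lower (11.8%) and 3 higher (8.82%) among 34, with a median of 0.41. Glucanases of family GH17 held 2 lower and 2 higher among 67, which is 2.99% lower against 5.58% of all tested genes. Pathogenesis-related proteins accumulate at infection and after salicylic acid, and those of the PR1 type carry a CAP domain. Of 12 CAP genes, 5 were called lower and 3 higher, with a median of 0.60 that changed sign with the libraries used (-0.54 without PPZ plus BL 1, -0.69 without PPZ plus BL 2, -0.78 without PPZ plus BL 3 and -0.62 without PPZ 1). PRI1-9 (Glyma.15G062800, chromosome 15, 4804340 to 4805098) had 23.8, 38.5 and 38.7 CPM in PPZ, no counts in PPZ plus BL 1 and 2 and 1 count in PPZ plus BL 3. The ratio of PPZ to PPZ plus BL was 2194 (95% counting interval 393 to 86710.0), with an adjusted p of 2.47e-05. PR1-7 (Glyma.15G062500) had 37.1, 24.4 and 52.6 CPM in PPZ and 1.39, 1.80 and 1.45 CPM in PPZ plus BL (log2 fold change -4.60 ± 0.31, adjusted p = 6.29e-05), and PR1-2 (Glyma.13G251700) had 2.22, 2.94 and 3.69 CPM in PPZ and no counts in PPZ plus BL, at least 21.1-fold lower. The opposite held for Glyma.15G062300, which is annotated on the same chromosome as PR1-7 and had 12.4, 12.5 and 9.14 CPM in PPZ and 42.2, 44.4 and 50.02 CPM in PPZ plus BL (log2 fold change 2.01 ± 0.15, adjusted p = 8.03e-05). Glyma.13G094100 rose too, from 19.3, 15.1 and 12.8 CPM to 52.0, 55.9 and 51.5 CPM (log2 fold change 1.75 ± 0.15). The PR1 family therefore split, with calls in both directions.

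PR-10 proteins, relatives of the birch pollen allergen Bet v I, are small intracellular defence proteins. Of 30 genes with this domain, 7 were called lower (23.3%) and 1 higher (3.33%), against 5.58% and 2.15% of all tested genes. The gene with the symbol PR-10 (Glyma.07G243651) had 639, 658 and 896 CPM in PPZ and 64.0, 71.6 and 98.1 CPM in PPZ plus BL (log2 fold change -3.23 ± 0.22, adjusted p = 6.57e-05). Its neighbour Glyma.07G243500 had 1412, 1428 and 1743 CPM in PPZ and 44.0, 44.6 and 87.7 CPM in PPZ plus BL (log2 fold change -4.70 ± 0.32, adjusted p = 6.36e-05), and Glyma.07G243900 had 116, 95.1 and 123 CPM and 2.58, 1.84 and 2.38 CPM (log2 fold change -5.62 ± 0.18, adjusted p = 7.92e-06). PPZ 3 was the highest library in all 3 of these neighbours, and the counting can divide reads between near-identical copies in such a cluster. Going the other way, Glyma.09G118300 had 11.4, 10.4 and 12.2 CPM in PPZ and 107, 52.9 and 38.9 CPM in PPZ plus BL (log2 fold change 2.54 ± 0.35), with PPZ plus BL 1 well above the others.

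Protease inhibitors and oxidases that deter insects fell in most of their measured members. Kunitz and Bowman-Birk inhibitors block digestive proteases of herbivores, and 13 of 21 were called lower and 0 higher, with a median of -2.50. Glyma.15G211500 had 722, 414 and 793 CPM in PPZ and 5.10, 5.49 and 4.12 CPM in PPZ plus BL (log2 fold change -7.03 ± 0.32, adjusted p = 2.48e-05). KTI-1 (Glyma.08G341400), a Kunitz inhibitor, had 327, 445 and 550.2 CPM in PPZ and 116, 95.5 and 94.4 CPM in PPZ plus BL (log2 fold change -2.11 ± 0.21). Glyma.16G212200 had 22.4, 18.6 and 15.1 CPM in PPZ and 1 count in all in PPZ plus BL, a ratio of 1213 (95% counting interval 217 to 47941). Polyphenol oxidases, which brown wounded tissue, were called lower in 4 of 5 members. In Glyma.04G121700 the levels were 170.0, 156 and 252 CPM in PPZ and 0.824, 1.00 and 1.36 CPM in PPZ plus BL (log2 fold change -7.49 ± 0.29, adjusted p = 1.54e-05), and in Glyma.15G071200 they were 130.4, 109.6 and 151 CPM and 4.43, 4.12 and 3.73 CPM (log2 fold change -4.99 ± 0.17, adjusted p = 9.76e-06). Matrixin proteases, secreted enzymes of the extracellular matrix, held 7 lower and 0 higher calls among 13 genes, among them MMP2 (Glyma.01G036900), with 677, 630.5 and 530.0 CPM in PPZ and 38.3, 38.8 and 56.6 CPM in PPZ plus BL (log2 fold change -3.78 ± 0.21). For all of the genes named here the PPZ plus BL libraries lay below every PPZ library, as in every gene called lower.

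Receptor families of defence differed in their share of lower calls. Cysteine-rich kinases, which carry an antifungal domain outside the cell, held 23 lower and 0 higher calls among 90 tested genes, with a median of -0.65. Glyma.10G253700 had 76.4, 31.6 and 64.0 CPM in PPZ and 0.412, 0.160 and 0.0969 CPM in PPZ plus BL (log2 fold change -8.01 ± 0.51, adjusted p = 5.02e-05). Malectin-type kinases, a family that includes the FERONIA receptor, held 10 lower and 3 higher calls among 83 genes, with 1 higher call without PPZ 2, PPZ 3 or PPZ plus BL 2. Glyma.08G235800 had 18.98, 39.2 and 41.2 CPM in PPZ and 1.70, 0.761 and 0.824 CPM in PPZ plus BL (log2 fold change -4.94 ± 0.41). Intracellular NB-ARC immune receptors held 17 lower and 1 higher call among 307 genes, which is 5.54% lower and close to the 5.58% of all genes.

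Some genes of isoflavonoid synthesis, which in soybean leads to the antimicrobial glyceollins, were lower at several steps. Many of the genes named by symbol for this pathway were chosen after their values were seen. Chalcone synthase makes the first flavonoid skeleton, and of 19 genes 8 were called lower and 0 higher, with a median of -1.72 and 0 log2 fold changes above 0. CHS11 (Glyma.01G091400) had 13.8, 20.3 and 43.5 CPM in PPZ and 2.47, 3.44 and 3.30 CPM in PPZ plus BL (log2 fold change -3.07 ± 0.42, adjusted p = 0.00117). CHS10 (Glyma.02G130400) had 27.1, 60.1 and 92.5 CPM in PPZ and 6.75, 11.9 and 9.94 CPM in PPZ plus BL (log2 fold change -2.65 ± 0.43, adjusted p = 0.00236). Both genes were far higher in PPZ 3 than in PPZ 1. The lowest PPZ library still stood above every PPZ plus BL library, as in every gene called lower. IFR (Glyma.11G070500), isoflavone reductase, had 121, 163 and 207 CPM in PPZ and 22.0, 23.7 and 24.96 CPM in PPZ plus BL (log2 fold change -2.79 ± 0.20, adjusted p = 7.70e-05).

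Genes named for later enzymes of the branch were lower too, but many were chosen after their values were seen. Their shared direction follows in part from that choice. CYP93A1 (Glyma.03G143700), a cytochrome P450 that hydroxylates the pterocarpan skeleton, had 166, 219 and 307 CPM in PPZ and 12.5, 13.5 and 22.2 CPM in PPZ plus BL (log2 fold change -3.84 ± 0.31, adjusted p = 1.13e-04). G4DT (Glyma.10G295300), the prenyltransferase named after the pterocarpan glycinol, had 491, 620.0 and 721 CPM in PPZ and 62.3, 75.3 and 92.5 CPM in PPZ plus BL (log2 fold change -2.99 ± 0.21, adjusted p = 6.98e-05). PT01 (Glyma.01G134600), a second gene of the UbiA prenyltransferase family, had 133, 112 and 155 CPM in PPZ and 5.67, 2.96 and 3.15 CPM in PPZ plus BL (log2 fold change -5.10 ± 0.27, adjusted p = 4.17e-05). PPZ 3 held the highest level of each of these genes. As in every gene called lower, no PPZ plus BL library reached any PPZ library. The dirigent-domain genes PTS1, PTS3 and PTS4, named after pterocarpan synthase, had log2 fold changes of -3.35 ± 0.31, -3.11 ± 0.31 and -3.69 ± 0.34. The dirigent list as a whole was mixed, with 6 lower and 3 higher calls among 36 genes. In that list 22 log2 fold changes lay above 0, the median was 0.66, and 0 higher calls remained without PPZ 1. Of 17 UbiA prenyltransferases, 5 were called lower and 1 higher. The higher call, Glyma.08G070600, was made in none of the fits that left out 1 library. The UbiA list was divided, with 9 log2 fold changes above 0, 8 below and a median of 0.14. By the adjusted p alone, 5 of its genes passed upward and 6 downward.

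Genes for the first enzyme of the phenylpropanoid pathway were not called. Phenylalanine ammonia-lyase (PAL) opens the pathway from phenylalanine, and 0 of 10 genes were called by edgeR or DESeq2, 6 with an unadjusted p under 0.05. Only 7.73% of all tested genes were called, so 0 calls in a list of 10 say little. By the adjusted p alone 2 of the PAL genes were past 0.01 downward and 1 upward, and PAL genes called lower numbered 2 without PPZ 1 or PPZ plus BL 3 and 1 with the replicate number as a block. PAL1.1 (Glyma.19G182300) had 157, 212 and 247 CPM in PPZ and 105, 134 and 133 CPM in PPZ plus BL (log2 fold change -0.72 ± 0.19, adjusted p = 0.0193), and PAL2.1 (Glyma.10G058200) had 206, 349 and 469.9 CPM and 293, 275 and 250.3 CPM (log2 fold change -0.33 ± 0.27, adjusted p = 0.387). PAL1.1 was lower in each PPZ plus BL library than in any PPZ library, whereas the groups of PAL2.1 overlapped, with PPZ 1 below every PPZ plus BL library and PPZ 2 and PPZ 3 above. By contrast C4H1 (Glyma.20G114200), cinnamate 4-hydroxylase, the next enzyme, had 394, 414 and 318 CPM in PPZ and 14.4, 41.8 and 46.6 CPM in PPZ plus BL (log2 fold change -3.45 ± 0.41, adjusted p = 5.66e-04). The flavonoid hydroxylase gene SF3'H1 (Glyma.06G202300) had 28.3, 22.1 and 37.4 CPM and 1.49, 0.801 and 0.824 CPM (log2 fold change -4.83 ± 0.30, adjusted p = 4.57e-05).

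**Figure D4:**
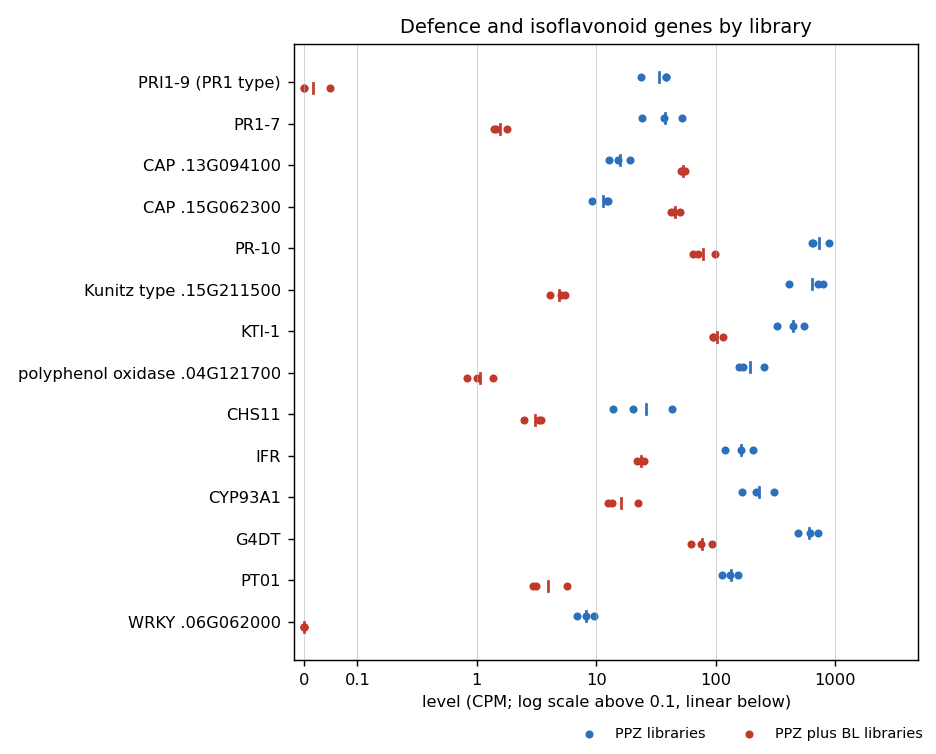
Levels in CPM (horizontal axis, logarithmic above 0.1 and linear below) of 14 defence and isoflavonoid genes in each PPZ library (blue points) and each PPZ plus BL library (red points), with vertical bars at the group means. Red points lie to the left of blue points in every row other than the CAP genes Glyma.13G094100 and Glyma.15G062300, where they lie to the right.

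Enzyme families of specialised metabolism and detoxification moved in both directions. Cytochrome P450 genes held 42 lower and 10 higher calls among 212, with a median of -0.07 that turned to 0.10 under scaling by library size. The higher calls dropped to 6 without PPZ 1, PPZ 2 or PPZ plus BL 2. Glyma.11G062500 had 115, 122 and 171 CPM in PPZ and 0.155, 0.0801 and 0.194 CPM in PPZ plus BL (log2 fold change -9.88 ± 0.30, adjusted p = 7.46e-06), and Glyma.15G156100 had 101, 111 and 201 CPM and 0.258, 0.280 and 0.388 CPM (log2 fold change -8.78 ± 0.40, adjusted p = 2.55e-05). Glutathione S-transferases, which conjugate toxins and oxidised lipids, held 19 lower (34.5%) and 1 higher (1.82%) call among 55 genes, with a median of -0.59. In GSTU38 (Glyma.08G174900) the levels were 58.8, 32.0 and 54.9 CPM in PPZ and 1.96, 0.561 and 0.485 CPM in PPZ plus BL (log2 fold change -5.64 ± 0.46). Class III peroxidases, which form or cleave peroxide in the wall, held 27 lower (20.3%) and 9 higher (6.77%) calls among 133 genes, and 3 higher calls without PPZ 2. POD (Glyma.02G171600) rose, from 8.05, 10.1 and 7.39 CPM to 67.1, 74.0 and 48.2 CPM (log2 fold change 2.89 ± 0.20, adjusted p = 6.29e-05). UDP-glycosyltransferases held 24 lower (16.7%) and 8 higher (5.56%) calls among 144 genes, against 5.58% and 2.15% of all tested genes. By the adjusted p alone 34 were past 0.01 upward and 34 downward, and the list median was 0.11. The higher calls of this list dropped to 2 without PPZ 2 and to 4 without PPZ 1 or without PPZ plus BL 2.

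Transcription factor families known from stress held lower calls in a larger share of their members than the 5.58% of all genes. Of 154 WRKY genes, whose products bind W-box promoters of defence genes, 33 were called lower (21.4%) and 1 higher, with a median of -0.52. Glyma.06G062000 (chromosome 6, 4631311 to 4633215) had 9.51, 6.94 and 8.21 CPM in PPZ and no counts in PPZ plus BL, at least 58.7-fold lower (adjusted p = 8.19e-05). Glyma.14G102900 had 7.45, 9.13 and 12.2 CPM in PPZ and 0.258, 0.320 and 0.145 CPM in PPZ plus BL (log2 fold change -5.26 ± 0.33, adjusted p = 4.84e-05). The single WRKY gene called higher, Glyma.05G123600, had 0.151, 0.449 and 0.243 CPM in PPZ and 4.59, 2.16 and 1.502 CPM in PPZ plus BL, and lost its call without PPZ 1 and without PPZ 3. NAC genes held 21 lower and 2 higher calls among 133, with 13 lower without PPZ plus BL 2. NAC12 (Glyma.16G043200) had 66.0, 43.5 and 30.2 CPM in PPZ and 0.876, 0.440 and 0.485 CPM in PPZ plus BL (log2 fold change -6.29 ± 0.39, adjusted p = 4.84e-05), highest in PPZ 1.

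Of all tested genes, 5.58% were called lower and 2.15% higher. AP2/ERF genes, the family of the ethylene and low-oxygen response factors, held 37 lower (16.5%) and 8 higher (3.57%) calls among 224 genes. Their median of -0.17 turned to 0.01 under scaling by library size. The higher calls dropped to 4 without PPZ 1, PPZ 2 or PPZ plus BL 1 and to 5 without PPZ plus BL 2. Glyma.02G006200 had 62.2, 33.7 and 27.8 CPM in PPZ and 0.721, 0.400 and 0.775 CPM in PPZ plus BL (log2 fold change -6.04 ± 0.41, adjusted p = 6.29e-05). Glyma.20G172800 went the other way, with 0.0503, 0.0499 and 0.194 CPM in PPZ and 1.19, 1.24 and 1.26 CPM in PPZ plus BL (log2 fold change 3.56 ± 0.47, adjusted p = 9.50e-04). MYB genes held 34 lower (10%) and 15 higher (4.41%) calls among 340, and bHLH genes 8 lower (4.60%) and 12 higher (6.90%) among 174. The higher calls of both families dropped when libraries were left out, with 7 MYB and 3 bHLH genes left without PPZ 2, 8 and 6 without PPZ 1, and 6 bHLH genes without PPZ plus BL 1 or PPZ plus BL 2. Glyma.06G289300, a MYB gene, had 1.01, 2.45 and 2.09 CPM in PPZ and 11.3, 10.49 and 9.26 CPM in PPZ plus BL (log2 fold change 2.48 ± 0.28, adjusted p = 4.92e-04), and Glyma.03G034000, a bHLH gene, had 0.151, 0.200 and 0.437 CPM and 3.56, 4.84 and 2.67 CPM (log2 fold change 3.78 ± 0.42, adjusted p = 4.33e-04). Heat shock factors held 6 lower calls among 46 genes and 6 or 7 when 1 library was left out, while their 3 higher calls dropped to 0 without PPZ 1, PPZ 2 or PPZ plus BL 2.

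Jasmonate is the hormone of wounding, and its synthesis starts with lipoxygenase and allene oxide cyclase. The TIFY family contains the JAZ repressors, which jasmonate itself induces. Of 36 TIFY genes 9 were called lower (25%, against 5.58% of all tested genes) and 0 higher, with a median of -0.76. Glyma.15G093100 had 4.73, 3.89 and 3.74 CPM in PPZ and 0.721, 0.200 and 0.436 CPM in PPZ plus BL (log2 fold change -3.22 ± 0.38, adjusted p = 5.51e-04). Of 6 allene oxide cyclase genes, AOC1 (Glyma.01G086900) had 84.2, 103 and 116 CPM in PPZ and 21.6, 27.5 and 25.9 CPM in PPZ plus BL (log2 fold change -2.01 ± 0.16, adjusted p = 9.52e-05), and Glyma.02G099200 had 149, 160.3 and 175 CPM and 42.2, 26.9 and 31.6 CPM (log2 fold change -2.26 ± 0.18, adjusted p = 1.03e-04). The other 4 were not called, and AOC3 (Glyma.19G044900) had 63.8, 81.5 and 81.0 CPM in PPZ and 105, 108 and 117 CPM in PPZ plus BL. Lipoxygenases held 5 lower (19.2%) and 1 higher (3.85%) call among 26, and 8 lower calls without PPZ 2 or PPZ plus BL 1. Their largest fall was in Glyma.08G189500, at 695, 773 and 836 CPM in PPZ and 54.4, 38.7 and 54.1 CPM in PPZ plus BL (log2 fold change -3.97 ± 0.19). ACS2 (Glyma.05G108900), an enzyme of ethylene synthesis, had 10.4, 9.43 and 5.64 CPM in PPZ and 1.34, 0.561 and 1.70 CPM in PPZ plus BL (log2 fold change -2.85 ± 0.39, adjusted p = 0.00115).

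Of the genes of brassinosteroid perception and signalling that were looked up, BRI1A, BRI1B, SERK1, GSK-3 and the BES1/BZR1 factor genes were not called. The receptor gene BRI1A (Glyma.06G147600) had 49.3, 46.5 and 41.7 CPM in PPZ and 47.2, 52.2 and 48.5 CPM in PPZ plus BL (log2 fold change 0.11 ± 0.10, adjusted p = 0.480). BRI1B (Glyma.04G218300) had 81.4, 72.2 and 62.9 CPM and 52.8, 62.6 and 64.4 CPM (log2 fold change -0.27 ± 0.13, adjusted p = 0.158), and the co-receptor gene SERK1 (Glyma.10G218800) had 40.6, 37.7 and 36.9 CPM and 34.3, 41.1 and 44.9 CPM (log2 fold change 0.06 ± 0.12, adjusted p = 0.734). The groups of all 3 genes overlapped. GSK-3 (Glyma.10G144600), named for the kinase type that restrains the pathway, had a log2 fold change of 0.04 ± 0.11 (adjusted p = 0.828). Of 14 BES1/BZR1 factor genes, 0 were called by edgeR or by DESeq2, 0 had an adjusted p of 0.01 or less at any fold, and 5 had an unadjusted p under 0.05. Only 7.73% of all tested genes were called, so 0 calls in a list of 14 say little. The log2 fold changes of the BES1/BZR1 factor genes ran from -0.70 to 0.60 with a median of 0.20. BES1-9 (Glyma.13G266600) had 59.4, 61.4 and 56.4 CPM in PPZ and 64.2, 57.9 and 65.4 CPM in PPZ plus BL.

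Sterol and steroid enzymes, which supply brassinosteroid synthesis, held a few higher calls. Of 20 sterol synthesis genes, 2 were called higher and 0 lower, and 8 passed the adjusted p upward. Both called genes carry the squalene and phytoene synthase domain, so that they may belong to sterol or to carotenoid synthesis by their Pfam entry, and Glyma.14G031200 had 1.51, 1.05 and 0.680 CPM in PPZ and 6.90, 4.40 and 6.06 CPM in PPZ plus BL (log2 fold change 2.42 ± 0.31, adjusted p = 8.57e-04). Among 8 steroid 5-alpha reductase genes, the family of the brassinosteroid enzyme DET2, Glyma.07G144400 was called, with 1.56, 2.25 and 3.64 CPM in PPZ and 9.17, 8.45 and 8.82 CPM in PPZ plus BL (log2 fold change 1.82 ± 0.27, adjusted p = 0.00177), and its call was lost without PPZ 1 and without PPZ 2. Glyma.02G081100 had 48.9, 57.1 and 54.9 CPM in PPZ and 151, 133 and 121 CPM in PPZ plus BL and fell short of the fold of 3 (log2 fold change 1.33 ± 0.12, adjusted p = 2.09e-04). EXORDIUM genes, brassinosteroid-induced in Arabidopsis, held 2 higher (13.3%) and 1 lower (6.67%) call among 15, and 0 higher calls without PPZ 1. The shares over all tested genes were 2.15% higher and 5.58% lower. Glyma.09G232700 had 9.21, 12.6 and 12.9 CPM in PPZ and 33.9, 37.1 and 38.8 CPM in PPZ plus BL (log2 fold change 1.66 ± 0.15), while Glyma.08G178000 had 19.9, 13.3 and 9.09 CPM and 2.16, 1.40 and 2.33 CPM (log2 fold change -2.85 ± 0.33). The 14-3-3 protein gene SGF14P (Glyma.13G270600), of a family that holds BZR1 in the cytoplasm, rose from 8.56, 8.54 and 8.31 CPM to 51.0, 54.1 and 38.0 CPM (log2 fold change 2.49 ± 0.15, adjusted p = 4.57e-05) and was the only one of 18 called by edgeR, while DESeq2 called 1 higher and 1 lower.

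Gibberellin enzymes with a RefSeq symbol changed by step. GA20OX and GA3OX enzymes make active gibberellin, and GA2OX enzymes inactivate it. Of 10 such genes tested, 3 were called higher, all of them synthesis genes, 2 were called lower, both of them inactivation genes, and 5 were not called. GA3OX3 (Glyma.13G361700, chromosome 13, 44223417 to 44225580) had 4.28, 6.64 and 7.34 CPM in PPZ and 74.3, 61.1 and 58.4 CPM in PPZ plus BL (log2 fold change 3.41 ± 0.21, adjusted p = 4.57e-05). GA20OX3 (Glyma.09G149200) had 1.21, 1.95 and 1.21 CPM in PPZ and 4.48, 6.93 and 7.32 CPM in PPZ plus BL (log2 fold change 2.10 ± 0.28, adjusted p = 0.00105). GA3OX1 (Glyma.04G071000) had 1 count in the PPZ libraries together and 1.44, 1.44 and 0.630 CPM in PPZ plus BL, a ratio of 71.6 (95% counting interval 12.5 to 2865). For inactivation, GA2OX5 (Glyma.13G218200) had 24.97, 24.6 and 22.6 CPM in PPZ and 4.17, 3.40 and 4.31 CPM in PPZ plus BL (log2 fold change -2.61 ± 0.13, adjusted p = 3.74e-05). GA2OX2 (Glyma.10G010700) had 5.54, 5.64 and 2.67 CPM and 1.65, 0.400 and 1.07 CPM (log2 fold change -2.18 ± 0.48) and lost its call without PPZ 1, PPZ 2, PPZ plus BL 2 or PPZ plus BL 3. The 5 genes that were not called included GA3OX6 (log2 fold change 1.82 ± 0.43) and GA2OX8 (log2 fold change -1.43 ± 0.22), on the same sides as their kind, and GA2OX1, GA2OX6 and GA2OX7, whose groups overlapped. Among 15 GASA genes, small peptides induced by gibberellin in other plants, 2 were called higher and 0 lower, 1 of them without PPZ 3, PPZ plus BL 2 or PPZ plus BL 3, and GASA29 (Glyma.17G258200) had 2.57, 2.75 and 3.21 CPM in PPZ and 20.6, 15.8 and 13.5 CPM in PPZ plus BL (log2 fold change 2.55 ± 0.20).

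Auxin genes showed no single direction. Of 52 AUX/IAA repressor genes, which auxin induces, 4 were called lower (7.69%, against 5.58% of all tested genes) and 0 higher. Of 14 GH3 genes, whose enzymes conjugate auxin or jasmonate, 2 were called lower (14.3%). Glyma.05G101300, a GH3 gene, had 82.0, 60.1 and 67.6 CPM in PPZ and 3.92, 2.44 and 1.60 CPM in PPZ plus BL (log2 fold change -4.73 ± 0.29, adjusted p = 4.57e-05). SAUR genes, a family of growth-related auxin-induced genes, held 5 higher (10%) and 4 lower (8%) calls among 50. The shares over all tested genes were 2.15% and 5.58%. The higher SAUR calls dropped to 1 without PPZ 2 and to 2 without PPZ 1, PPZ plus BL 2 or PPZ plus BL 3. Without PPZ plus BL 1 they numbered 3, and the lower calls rose to 7. Most genes of the auxin transport families were not called. Of 27 PIN and PILS genes 2 were called higher, 0 lower and 25 not at all. The AAAP family, which includes the auxin influx carriers, held 10 lower and 3 higher calls among 92 genes. Among the called genes, PIN3A (Glyma.07G217900), an auxin efflux carrier, had 2.22, 2.40 and 4.62 CPM in PPZ and 13.3, 12.8 and 10.47 CPM in PPZ plus BL (log2 fold change 1.98 ± 0.28, adjusted p = 0.00122). LAX4 (Glyma.03G063900), of the auxin influx carriers, had 0.805, 0.699 and 0.583 CPM and 5.20, 5.04 and 6.69 CPM (log2 fold change 3.01 ± 0.24, adjusted p = 1.05e-04). PPZ plus BL libraries stood above all PPZ libraries in both carriers, as in every gene called higher.

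Cytokinin and strigolactone genes gave a handful of calls. Of 25 genes for cytokinin synthesis 3 were called higher (12%) and 1 lower (4%), against 2.15% and 5.58% of all tested genes. Isopentenyl transferases make cytokinin, and Glyma.07G256700, Glyma.15G103800 and Glyma.13G209101, all with the IPP transferase domain, were called higher in all fits that left out 1 library. Glyma.15G103800 had 0.503, 0.549 and 0.923 CPM in PPZ and 3.76, 3.60 and 4.07 CPM in PPZ plus BL (log2 fold change 2.52 ± 0.27, adjusted p = 4.08e-04). Glyma.04G052600, with the lysine decarboxylase-like domain of the enzymes that release active cytokinin, was called lower, from 85.5, 58.1 and 87.2 CPM to 20.7, 14.3 and 14.4 CPM (log2 fold change -2.23 ± 0.21). Cytokinin oxidases degrade the hormone, and 2 of 13 were called lower (15.4%) and 1 higher (7.69%). Of these, Glyma.13G104700 fell from 19.3, 12.3 and 9.72 CPM to 0.206, 0.240 and 0.533 CPM (log2 fold change -5.38 ± 0.41, adjusted p = 9.00e-05), with CKX3 (Glyma.17G054500) at 5.69, 4.99 and 4.96 CPM and 1.08, 0.801 and 0.969 CPM (log2 fold change -2.46 ± 0.21). The higher call was Glyma.09G063900, with 0.957, 0.948 and 0.535 CPM in PPZ and 4.02, 3.40 and 2.23 CPM in PPZ plus BL, and higher oxidase calls numbered 0 without PPZ 2 or PPZ plus BL 2 and 2 without PPZ 1. CCD7 (Glyma.11G161947), a carotenoid cleavage enzyme of strigolactone synthesis, had 0.151, 0.200 and 0.146 CPM in PPZ and 1.13, 1.76 and 1.502 CPM in PPZ plus BL (log2 fold change 3.11 ± 0.37, adjusted p = 5.95e-04). CCD8 (Glyma.06G085800), the next enzyme, was not called, at 0.554, 0.649 and 0.535 CPM and 0.567, 0.721 and 1.41 CPM.

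Cell wall families were divided between higher and lower calls. Fasciclin arabinogalactan proteins, glycoproteins of the wall surface, held 9 higher and 0 lower calls among 29 genes, with a median of 1.15 and 28 log2 fold changes above 0, and between 6 and 7 higher calls when 1 library was left out. Glyma.13G293500 had 21.4, 25.7 and 28.5 CPM in PPZ and 134, 108 and 93.01 CPM in PPZ plus BL (log2 fold change 2.15 ± 0.17, adjusted p = 1.07e-04). Polygalacturonases, which cut pectin, held 5 higher and 0 lower calls among 46 genes, 3 without PPZ 1, and 21 passed the adjusted p upward. In Glyma.08G087900 the levels were 7.4, 6.19 and 8.36 CPM in PPZ and 29.3, 29.9 and 29.9 CPM in PPZ plus BL (log2 fold change 2.02 ± 0.13, adjusted p = 5.09e-05). Pectate lyases held 0 calls by edgeR or DESeq2 among 17 genes, 11 of them with an unadjusted p under 0.05, and 8 passed the adjusted p upward, among them Glyma.05G044000 with 34.7, 43.0 and 36.8 CPM and 107, 94.8 and 84.8 CPM (log2 fold change 1.32 ± 0.13). Cellulose synthases had 10 of 39 genes past the adjusted p upward, 0 called higher and 1 called lower, Glyma.10G189300, whose call was lost without PPZ 3, PPZ plus BL 2 or PPZ plus BL 3. Higher cellulose synthase calls numbered 4 under scaling by library size alone, 2 without PPZ plus BL 3 and 1 without PPZ 3.

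Enzymes that loosen or remodel the wall did not move together. Expansins loosen the wall during growth, and 11 of 54 were called lower (20.4%) and 3 higher (5.56%), against 5.58% and 2.15% of all tested genes. Their median of 0.12 lay below 0 without PPZ plus BL 3 (-0.08) and among expansins with a mean of at least 50 counts (-0.04). Glyma.05G065300 had 12.1, 9.98 and 10.7 CPM in PPZ and 0.206, 0.120 and 0.436 CPM in PPZ plus BL (log2 fold change -5.43 ± 0.32, adjusted p = 4.57e-05), whereas Glyma.04G222100 had 3.57, 4.79 and 3.11 CPM and 17.5, 16.6 and 16.3 CPM (log2 fold change 2.13 ± 0.17, adjusted p = 1.14e-04). Summed over all 83 annotated genes, tested or not, expansin levels ran from 3564 to 4236 CPM in PPZ and from 1387 to 1479 CPM in PPZ plus BL. Xyloglucan endotransglucosylases, which cut and rejoin wall glucans, held 7 higher and 3 lower calls among 45 genes, with 4 higher without PPZ plus BL 2 and 5 lower without PPZ 3 or PPZ plus BL 1. Glyma.18G137500 had 4.78, 5.29 and 6.90 CPM in PPZ and 32.6, 26.1 and 24.4 CPM in PPZ plus BL (log2 fold change 2.29 ± 0.18, adjusted p = 9.80e-05), and Glyma.13G103100 had 89.7, 52.0 and 77.2 CPM and 6.23, 3.96 and 3.10 CPM (log2 fold change -4.05 ± 0.30, adjusted p = 8.27e-05). Laccases, which polymerise lignin, held 9 higher and 3 lower calls among 58, but 2 higher without PPZ 2 and 5 without PPZ 1, and Glyma.03G073778 fell from 147, 92.6 and 126 CPM to 2.52, 2.16 and 1.16 CPM (log2 fold change -5.96 ± 0.30, adjusted p = 3.29e-05). COBRA proteins guide cellulose deposition, and 3 of 15 were called lower in every fit that left out 1 library, with a list median of 0.71.

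Tubulins form the microtubules along which cellulose synthase moves and by which chromosomes are parted. Of 38 genes, 3 were called higher and 0 lower, and 21 passed the adjusted p upward and 0 downward, with a median of 0.76. Summed tubulin levels ran from 2172 to 2519 CPM in PPZ and from 3933 to 4615 CPM in PPZ plus BL. TUBB1 (Glyma.08G014200) had 4.28, 6.54 and 6.07 CPM in PPZ and 39.7, 33.7 and 23.7 CPM in PPZ plus BL (log2 fold change 2.52 ± 0.23, adjusted p = 1.88e-04). In Glyma.04G088500 the levels were 51.4, 70.0 and 93.5 CPM in PPZ and 229, 239 and 229.7 CPM in PPZ plus BL (log2 fold change 1.70 ± 0.21), a call that was lost without PPZ 1. Tubulin groups did not overlap in either gene, as in every called gene.

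Genes of the cell cycle and of protein synthesis held few calls. Of 23 MCM and ORC genes, which start DNA replication, 0 were called by edgeR or DESeq2 and 0 had an unadjusted p under 0.05, as in 10 nucleosome assembly protein genes. Of 9 CDK inhibitor genes 0 were called by either tool and 4 had an unadjusted p under 0.05. Only 7.73% of all tested genes were called. In lists as small as these, and as that of root cap genes below, 0 calls therefore say little about the members. Of 57 histone genes 0 were called by either tool and 6 had an unadjusted p under 0.05, with summed levels from 3278 to 3992 CPM in PPZ and from 2894 to 4237 CPM in PPZ plus BL, which overlapped. Cyclins had 0 called by either tool among 74, 19 with an unadjusted p under 0.05 and 3 past the adjusted p upward. Kinesins, motors that move on microtubules, had 2 lower calls among 123 genes, of which Glyma.08G062600 lost its call without PPZ plus BL 2 or 3 and Glyma.03G233100 in every fit that left out a library other than PPZ 3. Among 450 ribosomal protein genes 2 were called lower, Glyma.19G071300, with the S21 domain, and Glyma.18G050600, with the L16 domain. Root cap proteins, made at the very tip, had 0 calls by either tool and 0 unadjusted p under 0.05 among 4 genes, and their summed level of 154 to 195 CPM in PPZ and 175 to 233 CPM in PPZ plus BL was present in all libraries. CASP-like genes, whose best known members build the Casparian strip of the endodermis, held 3 higher and 4 lower calls among 56 (12.5%, against 7.73% of all tested genes), with 1 higher call without PPZ 1, PPZ 2, PPZ plus BL 1 or PPZ plus BL 2 and 6 lower calls without PPZ 1, and had overlapping sums of 1075 to 1128 CPM in PPZ and 861 to 1138 CPM in PPZ plus BL. Fewer cells of a type and less RNA per cell cannot be told apart in such bulk samples.

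Aquaporins, the water channels of the plasma and vacuolar membranes, held more higher than lower calls. Of 50 genes, 9 were called higher and 2 lower, with a median of 0.83 and 43 log2 fold changes above 0, and 5 were called higher without PPZ 1 and without PPZ plus BL 1. Their summed level ran from 8932 to 9892 CPM in PPZ and from 14790 to 22118 CPM in PPZ plus BL. Glyma.03G185900 (chromosome 3, 40935093 to 40936806) had 183, 231 and 267 CPM in PPZ and 1284, 1187 and 967 CPM in PPZ plus BL (log2 fold change 2.33 ± 0.20, adjusted p = 1.31e-04). SIP1-3 (Glyma.19G108400) was lower, with 80.2, 71.0 and 58.9 CPM in PPZ and 14.1, 16.5 and 17.6 CPM in PPZ plus BL (log2 fold change -2.12 ± 0.15, adjusted p = 6.57e-05). The spread of the PPZ plus BL libraries in the sum was wide, but its lowest value lay above every PPZ library.

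Mineral transporter genes were called in both directions. NRT2 (Glyma.13G323800), a high-affinity nitrate transporter, had 10.9, 9.38 and 8.07 CPM in PPZ and 111, 65.7 and 47.6 CPM in PPZ plus BL (log2 fold change 2.98 ± 0.31, adjusted p = 3.16e-04). AMT1.2 (Glyma.10G132300), an ammonium transporter, fell from 231, 146 and 109.8 CPM to 24.9, 28.2 and 27.9 CPM (log2 fold change -2.58 ± 0.26, adjusted p = 2.86e-04). Phosphate exporters of the PHO1 type split, with PHO1-H10 (Glyma.20G032500) at 59.0, 36.2 and 45.2 CPM in PPZ and 1.39, 0.440 and 0.533 CPM in PPZ plus BL (log2 fold change -5.93 ± 0.37, adjusted p = 4.81e-05) and PHO1-H3 (Glyma.09G235200) at 0.302, 0.250 and 0.243 CPM and 2.22, 2.00 and 1.55 CPM (log2 fold change 2.83 ± 0.32, adjusted p = 4.63e-04). PHT1-5 (Glyma.20G204000), a phosphate uptake gene, was lower (log2 fold change -1.94 ± 0.17). For iron, Glyma.08G075900, of the vacuolar iron transporter family, had 0.201, 0.449 and 1.12 CPM in PPZ and 13.7, 7.85 and 6.35 CPM in PPZ plus BL (log2 fold change 3.95 ± 0.51, adjusted p = 8.51e-04). Nicotianamine synthase makes a chelator that carries iron, and 3 of 5 genes were called higher, with a list median of 3.00. Without PPZ plus BL 2 or without PPZ 2, 0 of them were called, and 1 without PPZ 1 or PPZ 3, and Glyma.15G251300 had 2.06, 0.699 and 2.14 CPM in PPZ and 50.4, 13.8 and 5.28 CPM in PPZ plus BL, a wide spread led by PPZ plus BL 1.

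None of the transporter genes GmKT1, GmKT2, GmVIT2, GmZIP1, GmZIP2 and GmMOT1, which the study names, was called between these groups. The study reports them for BL or PPZ against mock and describes no PPZ plus BL group, so these values do not test its result. Its GmPHT1 genes, named there without gene identifiers, are not covered here. The potassium transporter gene GmKT2 (Glyma.13G170700) had 1.71, 1.85 and 2.92 CPM in PPZ and 7.37, 6.45 and 5.04 CPM in PPZ plus BL and passed the adjusted p but not the fold of 3 (log2 fold change 1.54 ± 0.26, adjusted p = 0.00281). GmZIP1 (Glyma.13G338300), of the zinc and iron transporters, had 26.4, 32.8 and 33.7 CPM and 80.5, 52.7 and 44.1 CPM (log2 fold change 0.93 ± 0.22, adjusted p = 0.0135), without overlap. The iron transporter gene GmVIT2 (Glyma.08G181900) had 2.77, 3.44 and 3.64 CPM in PPZ and 2.01, 1.72 and 1.99 CPM in PPZ plus BL (log2 fold change -0.79 ± 0.21, adjusted p = 0.0210). The groups of GmKT1 (log2 fold change 0.14 ± 0.20), GmZIP2 (log2 fold change 0.40 ± 0.26) and the molybdate transporter gene GmMOT1 (log2 fold change 0.34 ± 0.39) overlapped.

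Genes of light harvesting and of the photosystems held higher calls and no lower calls. Chlorophyll a-b binding proteins capture light, and 14 of 26 genes were called higher and 0 lower, with a median of 1.86 and between 11 and 17 higher calls when 1 library was left out. CAB3 (Glyma.05G128000) had 11.2, 21.2 and 31.2 CPM in PPZ and 146, 139 and 92.96 CPM in PPZ plus BL (log2 fold change 2.57 ± 0.35, adjusted p = 0.00114). Summed over all 39 annotated genes, tested or not, the level ran from 181 to 250 CPM in PPZ and from 429 to 636 CPM in PPZ plus BL. Every PPZ plus BL library was thus above every PPZ library. Photosystem and thylakoid subunits held 9 higher and 0 lower calls among 39 genes, 6 higher without PPZ plus BL 2, with summed levels from 119 to 142 CPM in PPZ and from 236 to 377 CPM in PPZ plus BL. CHLH (Glyma.03G137000), a subunit of the magnesium chelatase of chlorophyll synthesis, had 4.58, 4.94 and 7.39 CPM in PPZ and 46.8, 28.9 and 26.0 CPM in PPZ plus BL (log2 fold change 2.59 ± 0.27, adjusted p = 3.58e-04). These genes also mark green tissue, whose part in the values was not tested.

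The carbon-fixing enzyme RuBisCO showed a split between its small chain genes. RBCS2 (Glyma.19G046800) had 7.25, 3.59 and 4.57 CPM in PPZ and 63.2, 38.7 and 26.9 CPM in PPZ plus BL (log2 fold change 3.06 ± 0.37, adjusted p = 6.08e-04), and Glyma.19G046600 and Glyma.13G046200 rose by 3.61 ± 0.42 and 3.26 ± 0.33 on the log2 scale. The fourth gene, Glyma.13G097100, had 195, 202 and 145 CPM in PPZ and 110.3, 108 and 121 CPM in PPZ plus BL and was not called (log2 fold change -0.67 ± 0.15, adjusted p = 0.0100). With this gene included, the summed level of all 6 annotated small chain genes, tested or not, overlapped between the groups. It ran from 152 to 209 CPM in PPZ and from 160 to 201 CPM in PPZ plus BL. RCA11 (Glyma.11G221000), named after RuBisCO activase, had 0.604, 0.549 and 0.292 CPM in PPZ and 24.0, 14.6 and 8.87 CPM in PPZ plus BL (log2 fold change 5.02 ± 0.46, adjusted p = 1.93e-04). RCA03 (Glyma.03G068100) with the same symbol root went the other way, from 51.6, 36.3 and 26.5 CPM to 0.309, 0.240 and 1.31 CPM (log2 fold change -5.96 ± 0.50, adjusted p = 1.28e-04).

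**Figure D5:**
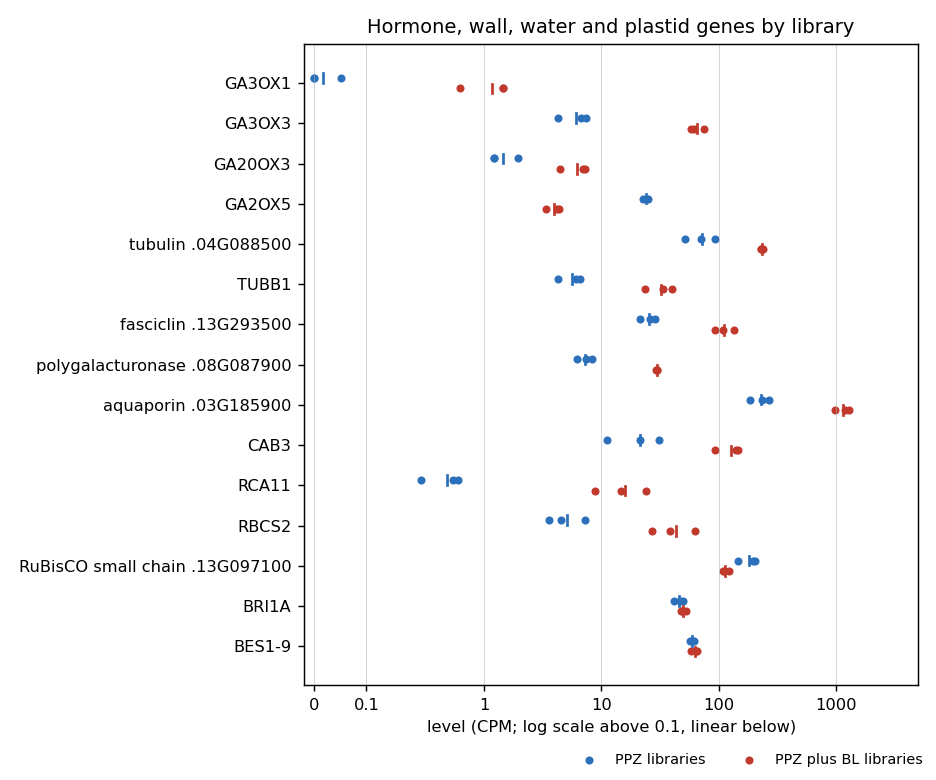
Levels in CPM (horizontal axis, logarithmic above 0.1 and linear below) of 15 hormone, wall, water and plastid genes in each PPZ library (blue points) and each PPZ plus BL library (red points), with vertical bars at the group means. Most rows show red points to the right of blue points, GA2OX5 and the RuBisCO small chain gene Glyma.13G097100 show the reverse, and in BRI1A and BES1-9 the colours overlap.

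Among the largest changes and the smallest adjusted p-values were genes of mixed annotation. Glyma.08G156300, with an aminotransferase class-V domain, had 19.9, 15.5 and 10.3 CPM in PPZ and no counts in PPZ plus BL, at least 109-fold lower. Glyma.18G263200, an ABC transporter gene, had 8.91, 13.4 and 13.8 CPM in PPZ and no counts in PPZ plus BL, at least 86.0-fold lower. Glyma.11G129300, of glycosyl hydrolase family 1, had 158, 122 and 133 CPM in PPZ and 3.86, 3.72 and 3.15 CPM in PPZ plus BL (log2 fold change -5.26 ± 0.16, adjusted p = 7.46e-06). On the higher side, Glyma.11G195200, a transporter of the major facilitator superfamily, had the smallest adjusted p, with 3.67, 5.04 and 4.96 CPM in PPZ and 72.1, 69.4 and 55.3 CPM in PPZ plus BL (log2 fold change 3.85 ± 0.17, adjusted p = 2.47e-05). The berberine bridge-like enzyme gene Glyma.15G133900 had 0.403, 0.349 and 0.535 CPM in PPZ and 8.60, 9.21 and 7.71 CPM in PPZ plus BL (log2 fold change 4.29 ± 0.22, adjusted p = 3.87e-05), and the thaumatin-like gene Glyma.04G023700 had 4.93, 4.34 and 5.10 CPM and 22.6, 24.1 and 22.1 CPM (log2 fold change 2.26 ± 0.12, adjusted p = 4.17e-05). The largest fitted rise among the named genes, in Glyma.13G171400, which has no Pfam entry, rested on 1 count in PPZ and 212 in PPZ plus BL, a ratio of 197 (95% counting interval 35.0 to 7825). In all of these genes the groups stood apart, as in every called gene and in 49.1% of all tested genes.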

How the data were processed

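RNA-seq of 1 cm root tips gave 1 table of counts for 12 libraries. The authors aligned reads with HISAT2 2.0.5 and deposited raw counts per gene from featureCounts 1.5.0-p3. The genome build and strand setting are not given in the sources used here, and the library kit does not keep the strand, so reads from overlapping or antisense genes cannot be told apart and near-identical copies may share reads. Coordinates are those of the table. Symbols came from RefSeq (Glycine_max_v4.0), by an overlap of at least 0.8 with a single gene. This paired 33802 of 52872 genes, 1979 of them with a symbol. The 6 libraries of PPZ and PPZ plus BL were fitted alone, after removing 980 loci outside the annotation (0.545% to 0.621% of counts). Genes were filtered with filterByExpr, scaled by TMM and tested with edgeR 4.0.16 (R 4.3.3, quasi-likelihood F test, Benjamini-Hochberg adjustment over all tested genes). The SE was obtained from the log2 fold change and its F value, as their ratio on the t scale. On simulated counts, 93.5% of 200 genes changed by 2 on the log2 scale among 35449 tested were called, with 0 false calls. The changed genes were drawn above a minimum mean count, rose and fell in equal number, and were far fewer than the genes called here. Simulated replicate spread followed a smooth trend with the level, so these rates do not carry over to the real counts. Replicate libraries differed beyond sampling noise (chi-square per gene 4.91 to 27.6).

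Counting intervals of ratios are at the 95% level and, like the floor of 3 counts, cover counting error only. Of the gene lists, 95 were defined by Pfam entry and 15 were added after values were seen, and all members and lists were chosen with earlier results of these data known. Genes were named if they were among the 10 largest changes in each direction (10 or more counts in each library of the group with the higher level), among the 3 largest called changes of a list in each direction (or its smallest adjusted p where none was called), in a list of 12 or fewer, among the 5 smallest adjusted p in each direction, or 1 of 6 transporter genes the study identifies. Hormone, clock, isoflavonoid, nutrient and photosynthesis genes with RefSeq symbols, and a few others, were chosen after their values were seen. The 12 FPKM columns and 25 columns of the authors' own comparisons (fold changes, p-values and adjusted p-values) were not used. Alternatives were DESeq2 1.42.0, other scalings, filters and thresholds, a replicate block and leaving out each library. Promoter sequence was not used here.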

Additional observations from a re-analysis of the deposited data

Results flagged for a closer look

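Signal outside the annotated genes was called at some loci. Of 980 loci that the table lists without a gene model, 609 were tested in a fit that kept them, and 63 were called (10.3%, against 7.73% of the tested genes), 17 higher and 46 lower in PPZ plus BL. The locus with the largest fitted fall had 743, 482 and 414 counts in PPZ 1, PPZ 2 and PPZ 3 and 0 counts in the 3 PPZ plus BL libraries.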

How the results depend on the processing

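The count of 2766 called genes (770 higher, 1996 lower) stayed within 1.5 times under DESeq2 (3170, of which 2742 were shared), median-ratio size factors, loci outside the annotation kept, scaling by library size alone, low counts unfiltered, and an adjusted p of 0.05 with the fold of 3. Scaling by library size raised the share of calls that were higher from 27.8% to 39.2%. A mean of at least 50 counts left 28820 genes tested and 464 higher calls. A test against a fold of 1.5 called 5129 genes (1946 higher, 3183 lower), and the adjusted p of 0.01 without a fold threshold called 6969 (2861 higher, 4108 lower). Without 1 library at a time the counts ranged from 2050 to 2794 called, 459 to 785 higher and 1558 to 2119 lower. No gene was called in opposite directions by the fit as reported and any of these settings other than the test against a fold of 1.5, for which this was not counted.

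Same-numbered libraries of the groups did not deviate together (r of -0.09, 0.17 and -0.31, against -0.32 to 0.30 for other pairs). With so few libraries per group, this check cannot settle whether the numbers pair them. With the replicate number as a block, 2149 genes were called, 489 higher and 1660 lower, and 2115 of these were among the 2766. Of 409 named genes that were called, 332 kept their call with the block, 405 under DESeq2, 397 under scaling by library size, and between 324 and 369 without 1 library. The cause of these shifts was not tested. At this depth genes with few counts in both groups were filtered out, and a level of 0 counts leaves a floor of 3 counts in a library. Promoter motifs, listed among the intended analyses, were not run.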

Other observations

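Of 5 genes of the circadian clock that were looked up after values were seen, 2 were called, both lower. ELF3A (Glyma.04G050200), a member of the evening complex, had 61.7, 45.7 and 42.7 CPM in PPZ and 9.79, 5.81 and 6.40 CPM in PPZ plus BL (log2 fold change -2.78 ± 0.23, adjusted p = 1.27e-04), and its paralogue ELF3B (Glyma.14G091900) had 20.1, 23.7 and 22.3 CPM and 19.99, 18.1 and 15.8 CPM (log2 fold change -0.29 ± 0.12, adjusted p = 0.103). FKF1 (Glyma.05G239400), a blue-light receptor of the clock, had 22.1, 20.3 and 16.96 CPM in PPZ and 1.96, 2.96 and 2.86 CPM in PPZ plus BL (log2 fold change -2.92 ± 0.19, adjusted p = 5.44e-05). GIGANTEA (Glyma.20G170000), the partner of FKF1 in Arabidopsis, was lower in every PPZ plus BL library but short of a fold of 3 (log2 fold change -0.73 ± 0.13, adjusted p = 0.00415). TOC1 (Glyma.06G196200), a core repressor of the clock, had overlapping groups (log2 fold change 0.04 ± 0.11, adjusted p = 0.810).

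Respiratory burst oxidases, which release superoxide at the cell surface, and ferric reductases share a Pfam entry, and 3 of 20 genes with it were called lower and 0 higher. Glyma.20G236200, with the respiratory burst domain, had 701, 504 and 352 CPM in PPZ and 79.3, 98.2 and 116 CPM in PPZ plus BL (log2 fold change -2.41 ± 0.27, adjusted p = 4.45e-04), and Glyma.06G162300, of the same kind, had 27.8, 28.6 and 29.4 CPM and 9.89, 5.45 and 7.71 CPM (log2 fold change -1.90 ± 0.20, adjusted p = 3.25e-04). FRD3b (Glyma.09G102800), of the MATE family that in Arabidopsis loads citrate for iron transport, was higher, with 1.36, 0.749 and 0.778 CPM in PPZ and 5.46, 4.48 and 7.75 CPM in PPZ plus BL (log2 fold change 2.61 ± 0.32, adjusted p = 6.74e-04). RCAALPHA (Glyma.02G249600), a further gene named after RuBisCO activase, rose beside RCA11 (log2 fold change 2.36 ± 0.22, adjusted p = 1.89e-04).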
